A study of Mus musculus with 8 samples.

Results

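Progenitors of the neural tube were examined through a set of 37 genes, chosen by symbol among the 48526 genes of the deposited count table as regulators or markers of neural progenitors and of the axes of the neural tube. The libraries were made from the heart field of mouse embryos, a mesodermal sheet behind the heart tube beside the neural tube. The labels do not say whether neural tissue was taken along. To control the dissection, the study read Rfx4 as a marker of the back and En2 and Wnt8b as anterior markers. Neurod1 was among its negative controls for the level of background. Each of 4 wild-type male C57bl6/J embryos at stage E8.5f, without treatment, gave a left and a right library after the heart and the back had been removed and the remaining tissue, from below the headfolds to the second somite, had been cut along the midline. The embryos are called L29-3, L43-5, L46-8 and L49-3, and 4 left libraries were compared with 4 right libraries, paired by embryo. Values of single libraries are listed in this order of embryos throughout, as DESeq2-normalized counts unless reads are named. The whole dissected tissue was sequenced, so fewer cells of a type and less RNA per cell cannot be told apart.

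The neural tube is patterned along 2 axes. Signals from the floor plate and from the roof plate set bands of homeodomain and basic helix-loop-helix factors from ventral to dorsal, and organizers between fore-, mid- and hindbrain set territories from head to tail, while SOX factors hold the cells as progenitors. Several of these factors work elsewhere in the embryo as well, such as Sox2 in the foregut, Pax2 and Pax8 in the otic placode and in the intermediate mesoderm, and Pax7 and the Zic genes in somites.

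A promoter window is given for 3 genes because the results turn on them: Sox1 had the largest difference between sides among the tested members, Zic1 was higher on different sides in different embryos, and En1 was read in left libraries alone. The windows are from RefSeq (GRCm38.p6), run from 250 bases before to 50 bases after the start of the transcript, and lie at chr8:12395269-12395568, plus strand, at chr9:91365719-91366018, minus strand, and at chr1:120602237-120602536, plus strand. The capitals mark the octamer ATGCAAAT, searched on both strands, which POU factors such as Pou3f2 and Pou3f3 are known to bind.
Sox1: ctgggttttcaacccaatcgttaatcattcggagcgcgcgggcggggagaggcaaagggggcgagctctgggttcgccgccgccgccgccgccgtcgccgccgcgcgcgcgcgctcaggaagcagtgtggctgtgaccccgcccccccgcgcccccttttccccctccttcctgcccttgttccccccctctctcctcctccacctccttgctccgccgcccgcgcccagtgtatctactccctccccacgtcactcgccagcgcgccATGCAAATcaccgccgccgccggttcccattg
Zic1: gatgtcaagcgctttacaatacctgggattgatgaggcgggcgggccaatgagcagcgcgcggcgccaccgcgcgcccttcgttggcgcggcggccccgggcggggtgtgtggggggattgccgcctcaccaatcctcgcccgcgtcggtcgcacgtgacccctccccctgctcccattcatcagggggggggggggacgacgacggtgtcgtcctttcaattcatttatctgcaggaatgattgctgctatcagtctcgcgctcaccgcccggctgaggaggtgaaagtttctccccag
En1: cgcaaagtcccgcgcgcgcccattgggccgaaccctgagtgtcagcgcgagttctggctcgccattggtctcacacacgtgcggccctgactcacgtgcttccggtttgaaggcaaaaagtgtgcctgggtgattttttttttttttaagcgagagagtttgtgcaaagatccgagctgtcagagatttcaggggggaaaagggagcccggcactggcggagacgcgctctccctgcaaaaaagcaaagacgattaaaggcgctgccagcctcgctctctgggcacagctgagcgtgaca
The octamer lay in the windows of 2 of the 32 members that had one, Sox1 and Egr2, and in 1.74% of all 32851 windows. The letters ACAATG or ACAAAG, known from SOX binding, were found on either strand in 10 of the 32, and in 28.6% of all windows. Members were counted once each, though some had several windows, 5 in the case of Egr2. The percentages count single windows, so the counts of members cannot be compared with them directly. The other 5 members, Sox3, Ncam1, En2, Irx5 and Zic2, had no window in the table, and no binding was measured in these libraries.

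Which neural domains were present was read first from the levels. The 37 genes together took from 0.0572% to 0.103% of the reads of a library, 12328 of 16447512 reads in all. All 37 had at least 1 read, and 21 had a mean DESeq2-normalized count over 5.6. The study used 5.6 as the background of its normalized read counts and 20 as that of DESeq2-normalized counts. With a mean of at least 20 as the level, 16 genes were left, and with TMM-normalized CPM over 5.6 there were 18. By the filter of the study 16 reached 20 normalized counts in at least 4 libraries and were tested, the same 16 as those with a mean of at least 20. The 5 that were over 5.6 but not tested were Pou3f2, Six3, Egr2, Zic1 and Zic5. Of the rest, 7 were over 5.6 in no library, and 6 of them had fewer than 10 reads in all 8 libraries together.

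Levels of different genes were compared as CPM, reads scaled to a common library total, per kb of exon, averaged over the 8 libraries. Irx3 and Irx5, Iroquois factors of the intermediate neural tube that other tissues also make, led this order together with Sox2, with 57.8 (range 25.7 to 74.4) and 19.2 (range 13.7 to 24.1) CPM per kb. Sox2, the SOXB1 factor that maintains neural progenitors, had 29.2 CPM per kb (range 16.6 to 51.6), and overlapped Irx5 in its range. The intermediate filament gene Nes had 16.6 and Sox3, a SOXB1 factor on the X chromosome, 15.5 CPM per kb. Zic2, a dorsal zinc finger factor, had 11.02, and Gbx2, a factor of the anterior hindbrain, 10.1 CPM per kb. At the other end lay the neurogenic factor Neurod1 with 0.0201 and En2, an engrailed factor of the midbrain and hindbrain border, with 0.0226 CPM per kb.

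**Figure D1:**
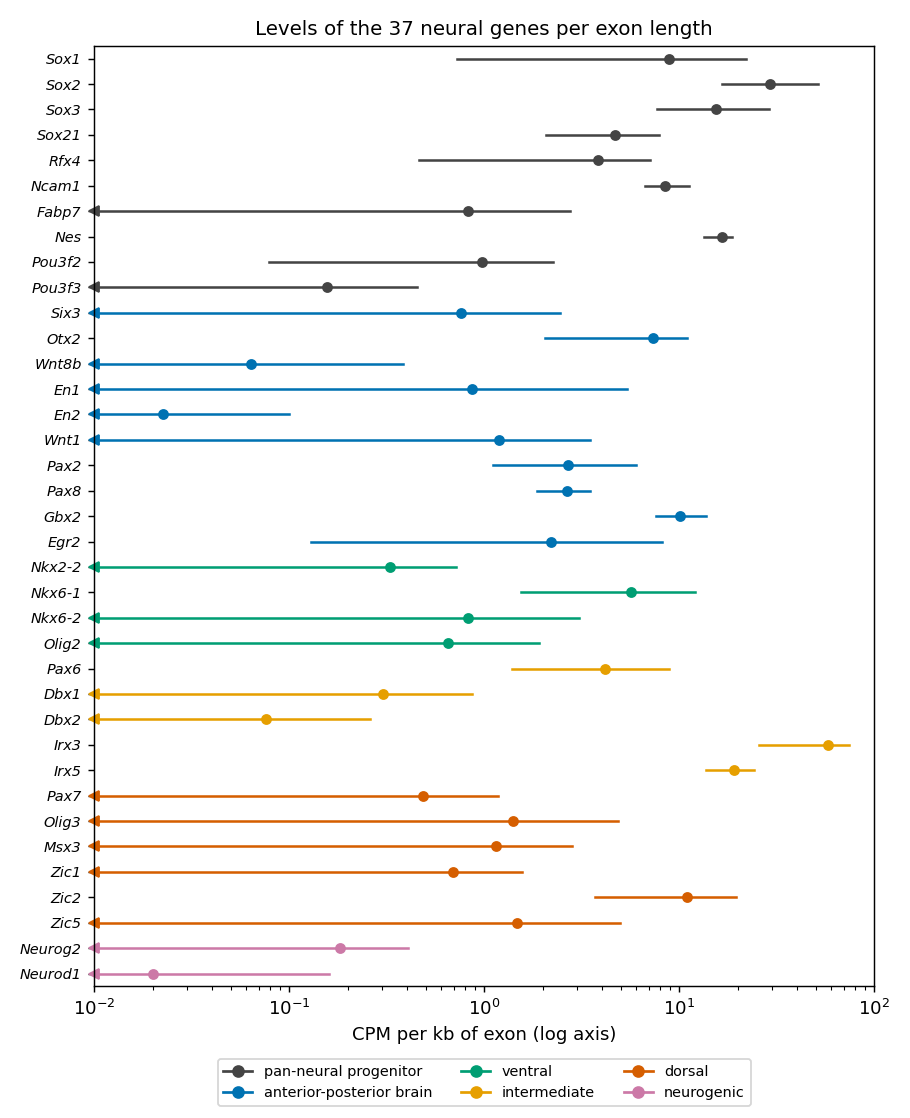
Levels of the 37 neural genes in CPM per kb of exon on a log axis, grouped by role. Points are means over 8 libraries, lines run from the lowest to the highest library and arrowheads mark genes with a library at 0. Irx3 had the highest mean (57.8) and Neurod1 the lowest (0.0201).

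By role, 8 of 10 pan-neural genes, 6 of 10 anterior-posterior genes, 3 of 5 intermediate genes, 3 of 6 dorsal genes and 1 of 4 ventral genes had a mean over 5.6, and 0 of 2 neurogenic genes did. At a mean of at least 20 these were 7 pan-neural, 4 anterior-posterior, 3 intermediate, 1 dorsal and 1 ventral gene. Several genes were near absent: the total over 8 libraries was 7 reads for Neurog2 and 1 for Neurod1, proneural factors, 3 for Wnt8b, a WNT ligand of the medial forebrain, and 2 for En2. Dbx1 (9 reads) and Dbx2 (5), which mark progenitors of interneurons in the middle of the cord, were as low. The ventral factors Nkx2-2, Nkx6-2 and Olig2, which depend on hedgehog signals, had 15, 23 and 27 reads. Among the pan-neural genes, Fabp7, a fatty acid binding protein of radial glia, had 19 reads and the POU factor Pou3f3 had 17. Reads of these genes are few, and a count of 0 in the smallest library still allows up to 4.99 normalized counts, the limit set by 3 reads, with counting error alone considered.

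Exon positions are shared by 6 of the 37 genes with a gene on the opposite strand that had 10 reads or more: Sox21, Six3, Pax8, Gbx2, Nkx6-2 and Irx3. The use of strand in counting is not given in the sources used here, so these values are uncertain where the partner is abundant. This holds most for Gbx2, whose partner D130058E05Rik had 142 reads against 345, and for Nkx6-2, which overlaps Inpp5a with 547 reads. It also holds for Six3, whose partner with the most reads had 33 against 53.

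The question of side was then asked of the 16 tested genes. The threshold of the study, unadjusted p up to 0.05 and a change of 1.2-fold or more, was passed by 3, and all of them were lower on the left: Sox1, Pax6 and Ncam1. By the same threshold 1.42% of all 9744 genes were lower on the left, and 1.63% were higher on the left, among which were 0 of the 16. After adjustment over all genes, edgeR called 0 of the 16 at an adjusted p under 0.05, with 0.0103% of all genes called, and the lowest adjusted p was 0.987. DESeq2 called 0 of the 16 by either threshold, and limma-voom called Pax6 and Sox1 by that of the study. Over the 16 genes the median log2 fold change of left over right was -0.15, with 5 higher and 11 lower on the left. Over all genes tested it was -0.00, with 4734 higher and 5010 lower on the left. The median absolute log2 fold change was 0.27 against 0.0936 for all genes tested.

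Sox1, a SOXB1 factor of committed neural progenitors, had left counts of 66.5, 45.6, 6.51 and 101 and right counts of 52.0, 85.4, 82.5 and 196. L43-5, L46-8 and L49-3 were higher on the right and L29-3 was higher on the left, and the groups overlapped. The means were 54.8 ± 39.4 in left and 104 ± 63.2 in right libraries (SD, n = 4), and the log2 fold change was -0.98 (SE 0.353, unadjusted p = 0.0167) by edgeR's quasi-likelihood test. Pax6, a paired-box factor of intermediate progenitors, had left counts of 70.5, 50.9, 30.1 and 109.9 and right counts of 39.6, 126, 103 and 191, again with the right side higher in every embryo but L29-3. Its mean level was 65.4 ± 34.0 in left and 115 ± 62.6 in right libraries (SD, n = 4), with a log2 fold change of -0.83 (SE 0.289, unadjusted p = 0.0142). Ncam1, a cell adhesion molecule of neural tissue that is not limited to it, had left counts of 110.3, 143, 119.6 and 107 and right counts of 128, 133, 179 and 168. Here L43-5 was the embryo with more on the left, the other 3 had more on the right, and the log2 fold change was -0.30 (SE 0.135, unadjusted p = 0.0467).

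Each of the 3 calls was lost when some embryo was left out. Without L29-3 the log2 fold change of Pax6 was -1.26 with an edgeR adjusted p of 0.0444, and the study's threshold was passed by Pax6, Sox1, Sox3 and Zic2, all lower on the left. Without L43-5, Pax6 (-0.61) missed it, and Sox1, Ncam1 and Nkx6-1 on the right and Pax8 on the left passed. Without L46-8 the log2 fold change of Sox1 was -0.57, that of Pax6 was -0.59 and no longer past the threshold, that of Ncam1 was -0.20, and Otx2 passed with 0.74. Without L49-3 only Pax6 passed among the 16. Of all 9744 genes, 355 passed the study's threshold without L29-3, 348 without L43-5, 379 without L46-8 and 268 without L49-3. Without the pairing by embryo, Pax6 and Ncam1 passed and Sox1 did not (unadjusted p = 0.0876).

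**Figure D2:**
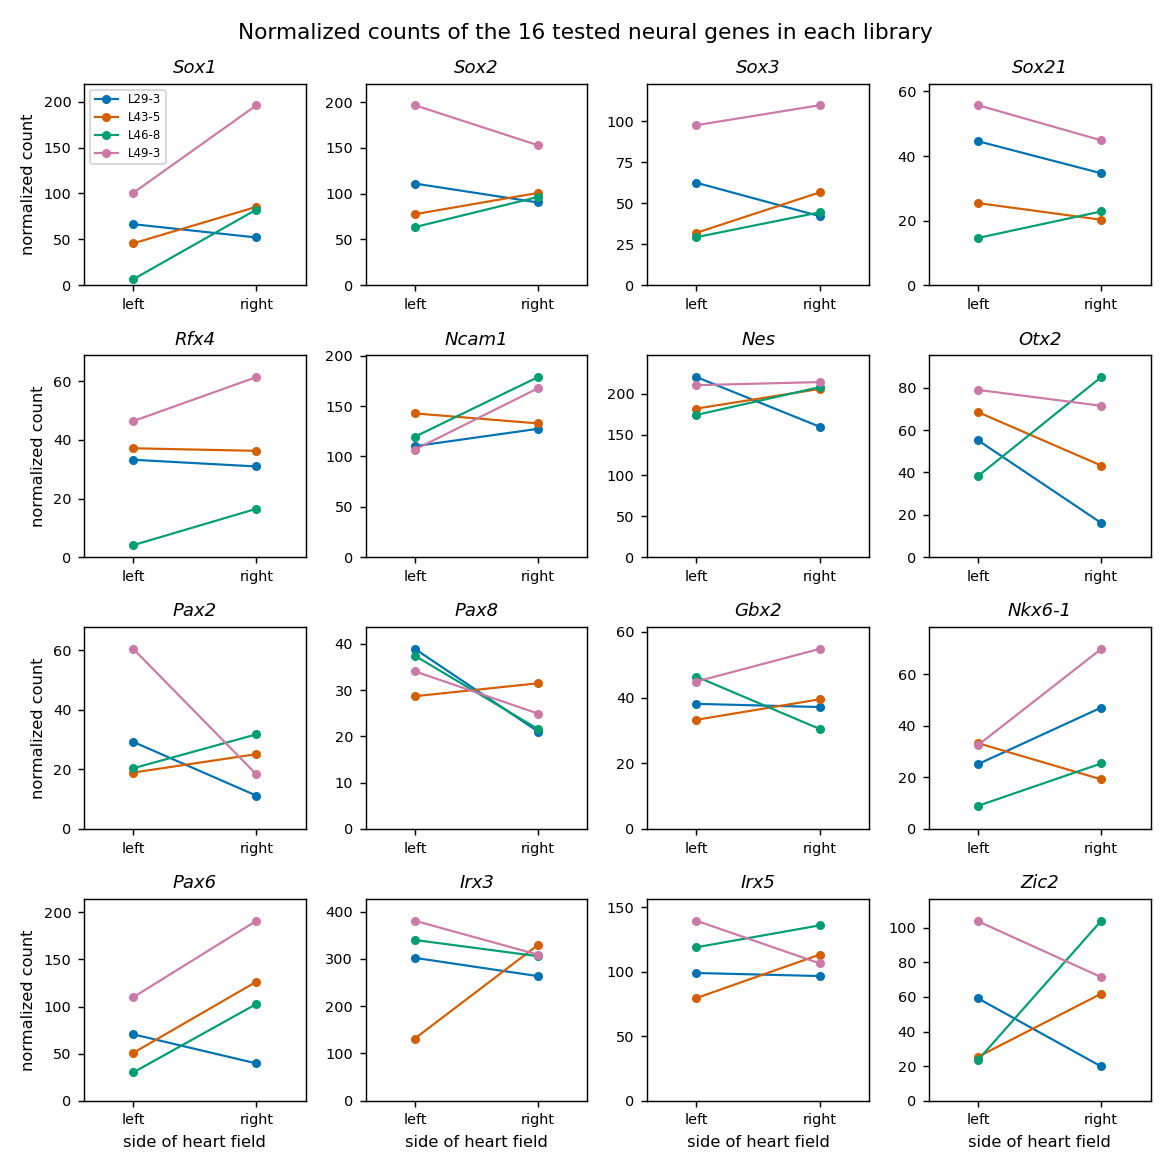
DESeq2-normalized counts (y axis, from 0) of the 16 tested neural genes in the left and right library, with a line joining the sides of each embryo. Lines slope in both directions in most panels: for Sox1, L29-3 went from 66.5 on the left to 52.0 on the right whereas L49-3 went from 101 to 196.

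The other pan-neural genes did not pass the test of side. Sox2 had left counts of 111, 77.6, 63.5 and 197 and right counts of 90.4, 101, 96.4 and 153, with 2 embryos higher on each side and a log2 fold change of -0.08 (SE 0.163, unadjusted p = 0.643). Sox3 had left counts of 62.4, 31.9, 29.3 and 97.5 and right counts of 42.1, 56.6, 44.4 and 109.7, and the left was higher in L29-3 alone. Rfx4, a factor of ciliogenesis and of dorsal midline formation in the neural tube, had left counts of 33.2, 37.2, 4.07 and 46.4 and right counts of 30.9, 36.3, 16.5 and 61.5. For each of these genes, and for Sox1, the left library of L46-8 was the lowest of the 8. Sox21, a SOXB2 factor that opposes SOXB1 activity, had a log2 fold change of 0.16 (SE 0.234, unadjusted p = 0.519) with the left higher in 3 embryos, and it too was lowest in the left library of L46-8, at 14.7. Nes ranged from 159.7 to 221 normalized counts, with a log2 fold change of -0.01 (SE 0.117, unadjusted p = 0.923). Pou3f2, a POU factor of progenitors and neurons that was not tested, had left counts of 8.92, 3.91, 0.814 and 9.29 and right counts of 2.48, 10.1, 21.6 and 23.3, with the right higher in all embryos but L29-3.

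**Figure D3:**
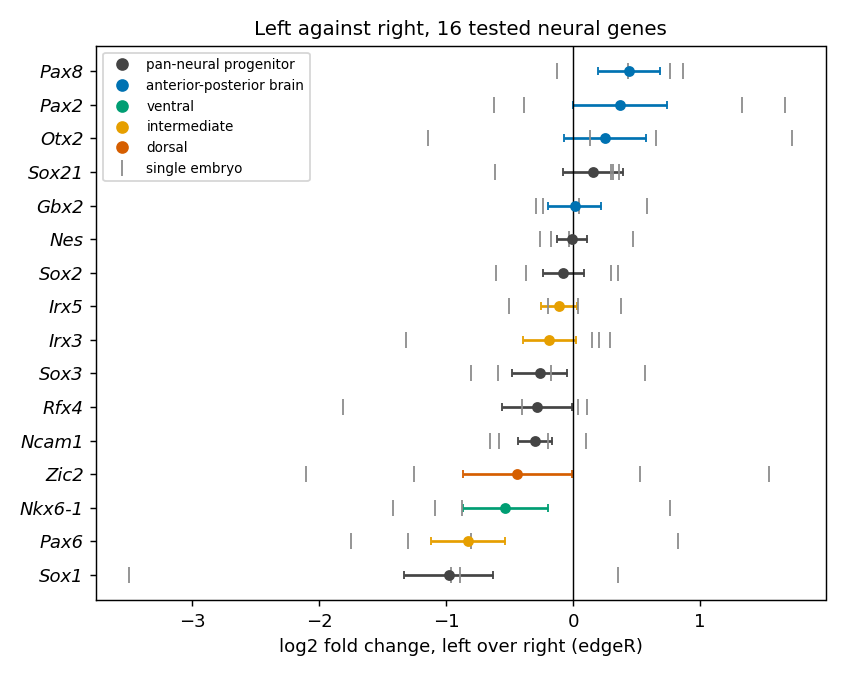
Log2 fold change of left over right with its SE from edgeR (points and bars) for the 16 tested neural genes, with the log2 ratios of the 4 single embryos (grey ticks, TMM-normalized CPM with 0.5 added). Sox1 (-0.98) and Pax6 (-0.83) lie furthest below 0 and Pax8 (0.44) furthest above it.

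Along the head to tail axis, Otx2, Gbx2, Pax2 and Pax8 were read at moderate levels. The rest of this role were not tested. Their total reads were 2 for En2, 3 for Wnt8b, 27 for En1, 39 for Wnt1, 53 for Six3 and 128 for Egr2. Otx2, which specifies forebrain and midbrain, had left counts of 55.1, 68.5, 38.3 and 79.0 and right counts of 16.1, 43.2, 85.0 and 71.5, and Gbx2, its counterpart behind the border, had left counts of 38.1, 33.2, 46.4 and 44.9 and right counts of 37.1, 39.5, 30.5 and 54.8. Otx2 was higher on the left in 3 embryos and Gbx2 in 2, with log2 fold changes of 0.25 (SE 0.321, unadjusted p = 0.451) and 0.01 (SE 0.206, unadjusted p = 0.963). Pax2 and Pax8, paired-box factors of the midbrain and hindbrain border, had fold changes to the left without passing a threshold. Pax8 had left counts of 38.9, 28.7, 37.4 and 34.1 and right counts of 21.0, 31.5, 21.6 and 24.9, and its log2 fold change was 0.44 (SE 0.243, unadjusted p = 0.0966). Pax2 had left counts of 29.2, 18.9, 20.3 and 60.4 and right counts of 11.1, 25.1, 31.7 and 18.3, with a log2 fold change of 0.37 (SE 0.369, unadjusted p = 0.339) that depended on L49-3, being -0.02 without it. Markers of the other tissues that make Pax2 and Pax8 were present: 5 of 9 otic and placode genes were tested, with summed normalized counts of 419 to 512 in left and 342 to 530.4 in right libraries and Oc90 at 0 reads, and 3 of 6 genes of the intermediate mesoderm, with sums of 136 to 206 in left and 137 to 207 in right libraries. Their part in the values of Pax2 and Pax8 was not tested.

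En1, the engrailed factor of the midbrain and hindbrain border, which surface ectoderm and somites also make later, was the single gene of the 37 whose left libraries all lay above all right libraries. Among the 23873 genes with a read, 1.16% did so. It had left read counts of 1, 6, 3 and 17 and right read counts of 0, 0, 0 and 0, that is 27 on the left and 0 on the right. Set against a limit of 3 counts over the right libraries, its observed CPM in left libraries was 7.94-fold higher. The limit covers counting error on the right alone, and no error of the left reads was considered, so this value is not a lower bound. Without L49-3, which gave 17 of the 27 reads, the value was 2.92-fold, and without L43-5 it was 5.00-fold. En1 did not reach the count needed for the test. Egr2, a zinc finger factor of hindbrain segments, likewise was not tested, and had left read counts of 63, 34, 1 and 12 and right read counts of 9, 7, 1 and 1. It was higher on the left in 3 embryos, and in L46-8 each side had a single read. En1 and Egr2 were singled out after their values were seen.

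When edgeR was run on all 23873 genes with a read, 4 of the 37 had an adjusted p under 0.05 between sides, Egr2 (log2 fold change 2.36, SE 0.400, adjusted p = 7.56e-06) and En1 (adjusted p = 0.0245) higher on the left, and Sox1 (-0.97, adjusted p = 1.49e-05) and Pax6 (-0.82, adjusted p = 0.000297) lower, against 0.142% of all genes. The fold changes of Sox1 and Pax6 hardly moved from those of the filtered genes, while the SE of Sox1 went from 0.353 to 0.168. The log2 ratios of Sox1 in single embryos spread far wider than this SE, from 0.355 in L29-3 to -3.496 in L46-8. Pax6 was likewise higher on the left in L29-3 and lower on the left in the other embryos. Egr2 had a single read on each side in L46-8. The adjusted p-values of this fit therefore cannot be read as a measure of agreement between embryos. Six3, a factor of the anterior forebrain, had left counts of 8.11, 2.61, 8.14 and 24.8 and right counts of 0, 0.534, 8.88 and 8.31, higher on the left in 3 embryos, and Wnt1, a WNT ligand of the midbrain and of the roof plate, had left counts of 3.24, 0, 1.63 and 12.4 and right counts of 0, 5.87, 15.2 and 3.32. In Wnt1 the left was the higher side in L29-3 and L49-3 and the right in L43-5 and L46-8, an order that returned among the dorsal genes.

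Among the ventral genes, Nkx6-1, a homeodomain factor of ventral progenitors, was the one that could be tested. It had left counts of 25.1, 33.2, 8.95 and 32.5 and right counts of 47.0, 19.2, 25.4 and 69.8. The right was higher in all embryos but L43-5, and the log2 fold change was -0.54 (SE 0.335, unadjusted p = 0.135), -1.12 without L43-5. Markers of the notochord and floor plate, whose hedgehog signal induces this class, had left sums of 149, 169, 57.8 and 122 and right sums of 115, 76.8, 91.4 and 184. These sums were higher on the left in L29-3 and L43-5. Nkx2-2 and Olig2 had highest values of 3.81 and 8.88 normalized counts, and Nkx6-2 of 10.8.

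Irx3 and Irx5, the intermediate genes with the most reads, did not pass the test of side. Irx3 had left counts of 302, 132, 340.2 and 381 and right counts of 264, 329.8, 306 and 309, and Irx5 had left counts of 98.9, 79.5, 119 and 139 and right counts of 96.6, 113, 136 and 106. The log2 ratio of left over right for Irx3 was 0.14 to 0.29 in L29-3, L46-8 and L49-3 and -1.32 in L43-5, and without L43-5 the log2 fold change went from -0.19 to 0.21. For Irx5 it went from -0.11 to 0.05.

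The higher side of the dorsal genes differed from embryo to embryo. They had left sums of 109, 36.5, 30.9 and 172 and right sums of 40.9, 112, 157 and 99.7. The left was thus 2.68-fold higher in L29-3 and 1.72-fold in L49-3, and the right 3.05-fold higher in L43-5 and 5.09-fold in L46-8. Of the 6 genes, 5 were higher on the left in L29-3, 5 on the right in L43-5, 6 on the right in L46-8 and 4 on the left in L49-3. The genes of a library share its tissue, so these counts describe 4 embryos and not 6 independent genes. This order of sides was not limited to the dorsal genes. The intermediate genes had it too, with left sums of 473, 263, 490 and 632 and right sums of 400, 573, 546 and 612. So did Sox2, Pax2 and Irx5, whereas the sums of the pan-neural, anterior-posterior and ventral genes did not follow it in all 4 embryos.

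Zic2, the dorsal gene with the most reads, had left counts of 59.2, 25.4, 23.6 and 104 and right counts of 19.8, 61.9, 104 and 71.5. Its log2 fold change of -0.44 (SE 0.428, unadjusted p = 0.323) averaged embryos that went opposite ways, and it turned to 0.10 without L46-8. Zic1, its paralogue in the dorsal neural tube and somites, had left counts of 15.4, 1.30, 0.814 and 6.19 and right counts of 0, 16.01, 16.5 and 1.66, and Zic5 had left counts of 7.30, 4.56, 4.07 and 44.9 and right counts of 0, 16.01, 17.8 and 11.6. These 3 Zic genes were higher on the left in L29-3 and L49-3 and on the right in L43-5 and L46-8. Pax7, a paired-box factor of the dorsal tube, had left counts of 6.49, 2.61, 2.44 and 6.19 and right counts of 0, 4.80, 12.7 and 6.65, and Msx3, a homeodomain factor limited to the dorsal neural tube, had left counts of 7.30, 0, 0 and 4.64 and right counts of 2.48, 12.3, 5.08 and 8.31. Both followed the Zic genes in the first 3 embryos and had more on the right in L49-3. Olig3, a factor of the dorsal progenitors next to the roof plate, had left counts of 13.8, 2.61, 0 and 6.19 and right counts of 18.6, 0.534, 1.27 and 0, and did not follow them: most of its reads, 32 of 42, came from L29-3. The value of 0 in the right library of L29-3 for Zic1, Zic5 and Pax7 allows up to 3.71 normalized counts.

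**Figure D4:**
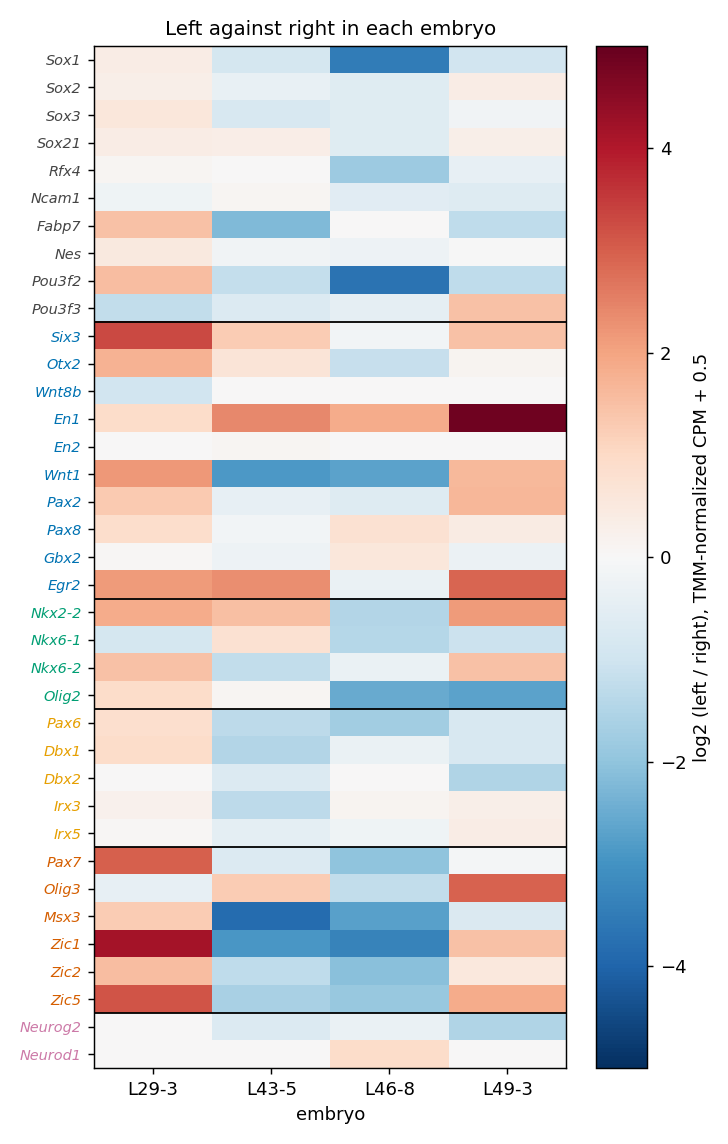
Log2 ratio of left over right in each embryo for the 37 neural genes, from TMM-normalized CPM with 0.5 added. Red is higher on the left and blue higher on the right, and horizontal lines part the roles. Zic1 went from 4.15 in L29-3 to -3.33 in L46-8, and En1 was above 0 in all 4 embryos.

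Genes shared with other tissues were read against this order. Pax3, which dorsal neural tube, neural crest and somites share, had left counts of 39.7, 6.52, 18.7 and 74.3 and right counts of 0, 41.1, 69.8 and 19.9, the same side being higher in each embryo as for Zic2. The 8 genes of paraxial mesoderm, Pax3 among them, had left sums of 503, 347, 474 and 599 and right sums of 423, 536, 624 and 533. Of the 10 neural crest genes, which also hold Pax3, 6 were tested, and they had left sums of 1192, 854, 832 and 1279 and right sums of 815, 853, 878 and 954. The paraxial sums were higher on the same side as the dorsal genes in all 4 embryos, by at most 1.55-fold, and remained so without Pax3, an alternative added after seeing the data, with left sums of 463, 340.3, 456 and 525 and right sums of 423, 495, 555 and 514. The crest sums were higher on that side in L29-3, L46-8 and L49-3, but without Pax3 they were higher on the left in all 4 embryos, with left sums of 1152, 848, 813 and 1205 and right sums of 815, 812, 808 and 934, and in L46-8 Pax3 alone put the right above the left. The otic and placode genes also had the higher sum on the side of the dorsal genes in all 4 embryos. Their left sums were 456, 419, 473 and 512 and their right sums 342, 425, 530 and 386. The sums of the remaining marker lists did not follow this order in all 4 embryos. The part of these tissues in the dorsal values was not tested.

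Differences between embryos were tested with both sides of an embryo as its samples. At an adjusted p under 0.05, 0 of the 16 genes passed in edgeR, with 0.174% of all genes passing, and DESeq2 and limma-voom called 0 as well. By edgeR's test across all genes, at an unadjusted p under 0.05, 7 of the 16 passed, whereas 9.99% of all genes did: Rfx4 (unadjusted p = 0.00109), Sox2 (unadjusted p = 0.00148), Sox3 (unadjusted p = 0.00179), Sox21 (unadjusted p = 0.00340), Sox1 (unadjusted p = 0.0161), Pax6 (unadjusted p = 0.0278) and Nkx6-1 (unadjusted p = 0.0445). In Sox1, Sox2, Sox3, Sox21 and Rfx4, both libraries of L49-3 lay above all libraries of the other embryos. With all 23873 genes in the fit, 13 of the 37 had an adjusted p under 0.05 between embryos, against 2.69% of all genes. The 7 genes above were among the 13, and so were Zic2 and Irx3. By edgeR's test the unadjusted p of Zic2 was 0.293 among the filtered genes and 0.000167 in this fit. For Irx3 it went from 0.227 to 6.66e-05. Yet Zic2 differed widely within an embryo, with 23.6 in the left and 104 in the right library of L46-8. The p-values of this fit therefore do not measure how well both libraries of an embryo agree. Without L46-8, Sox1 and Sox2 passed with adjustment, without L29-3 Sox3 did, and without L49-3 0 genes of the whole table did.

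The pan-neural genes had left sums of 659, 548, 414 and 831 and right sums of 541, 657, 674 and 977. L49-3 was highest on both sides, and it was also the embryo with the fewest reads, 1237593 and 1147446. Markers of cardiomyocytes, the muscle cells of the heart tube, were low in the left library of this embryo. Of these 8 genes 7 were tested, and the group had left sums of 5639.8, 3272, 3550.2 and 709 and right sums of 5421, 4647, 2006 and 2273. The left library of L49-3 had the lowest sum of all, whereas among right libraries that of L46-8 was lowest. By edgeR's test, 6 of the 7 tested genes differed between embryos at an unadjusted p under 0.05. The part of the cardiomyocyte content and of depth in the neural levels was not tested.

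**Figure D5:**
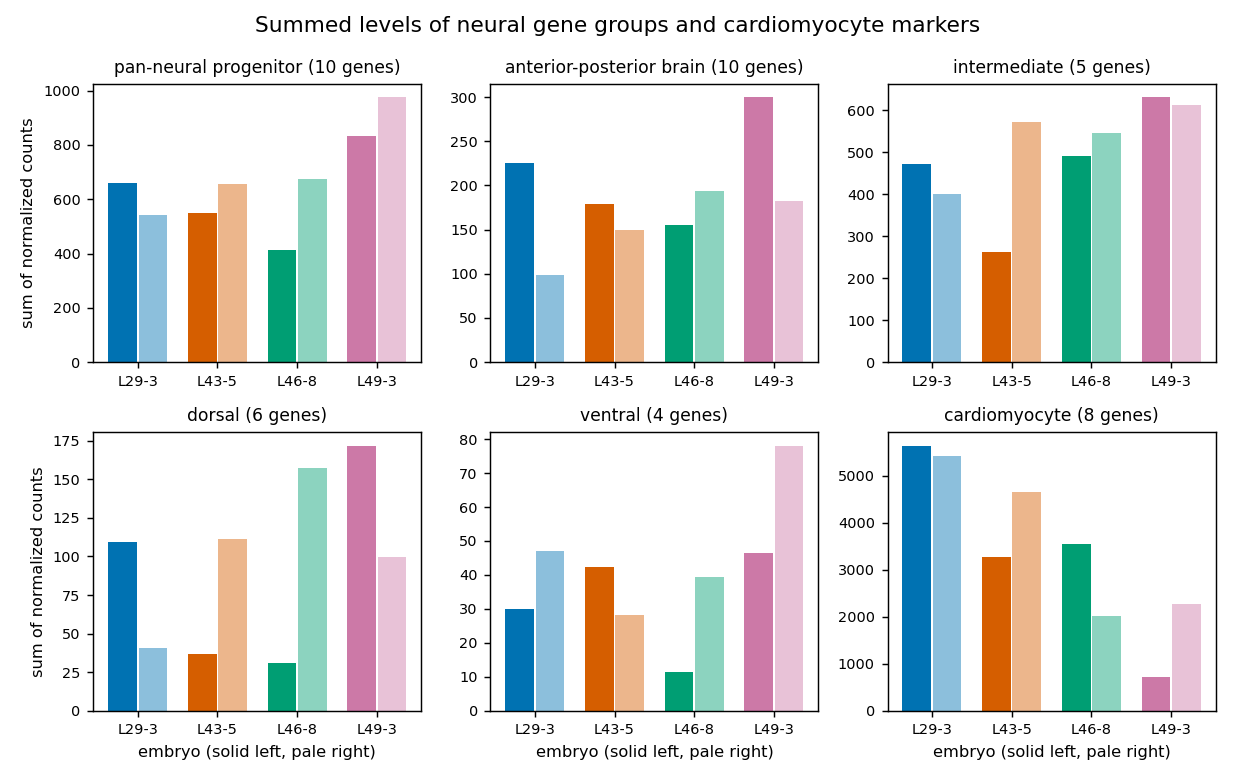
Sums of DESeq2-normalized counts (y axes, from 0) of 5 groups of neural genes and of cardiomyocyte markers in each library, solid for left and pale for right. The dorsal genes were highest on the left in L29-3 and L49-3 and on the right in L43-5 and L46-8, and the pan-neural sum was highest in L49-3 (831 and 977).

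The labelled tissue was checked as well. All 10 markers of the second heart field were tested, with sums of 985 to 1539 in left and 1167 to 1434 in right libraries. By the threshold of the study 0 passed. A lower value on the left was seen in 8 of 10, and in 5010 of all 9744 genes tested. Foregut endoderm, which makes Sox2, had 9 of 10 markers tested and sums of 937 to 1024 in left and 882 to 1010.1 in right libraries. Surface ectoderm had 7 of 10 tested and sums of 1407 to 1997 in left and 1582 to 1752 in right libraries. Their part in the neural values was not tested.

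A further 36 genes of neural progenitors, regions and neurons were read alongside, and 12 of them were tested. With adjustment in edgeR 0 of these 12 passed, with 0.0103% of all genes called. By the threshold of the study 1 passed, lower on the left, as did 1.42% of all genes. This was Foxb1, a forkhead factor of the early neural tube, with left counts of 30.8, 20.9, 3.26 and 61.9 and right counts of 27.2, 35.2, 21.6 and 106 and a log2 fold change of -0.74 (SE 0.301, unadjusted p = 0.0308). Like Sox1 and Pax6, it was lower on the left in all embryos but L29-3. The median log2 fold change of the 12 was 0.10, with 8 higher and 4 lower on the left, beside 4734 and 5010 of all genes tested.

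The mean standardized level of the 16 tested genes was used as a description of their common pattern over the 8 libraries, which come from 4 embryos. Each of the 16 was compared with the mean of the other tested members, itself left out. Sox3 (Pearson r = 0.932), Sox2 (0.918), Pax6 (0.884) and Zic2 (0.870) lay closest to that mean, and Ncam1 (0.0144) and Pax8 (-0.0546) did not follow it. Genes outside the 37 were compared with the mean of all 16. Of the 10 most like it, 9 were Fam76b (r = 0.966), Hes3 (0.955), Mfap1b (0.952), Arl13b (0.947), Rgma (0.946), Ppp1r1a (0.939), Fam19a5 (0.938), Sms (0.935) and Fam171b (0.934). Hes3, a repressor of the Hes family that neural progenitors make, had left counts of 23.5, 8.48, 2.44 and 35.6 and right counts of 3.71, 24.0, 15.2 and 49.9. The points share libraries and depth, and these 10 genes had the highest r of the tested genes outside the 37.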

How the data were processed

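RNA of the left and right heart fields of 4 embryos was sequenced as 8 polyA libraries. The authors aligned paired reads to GRCm38 with Hisat2, excluded duplicates and counted with featureCounts; the versions and strand setting are not given in the sources used here. The deposited values are raw counts of reads per gene, not normalized, for 48526 genes, with totals of 1147446 to 3520753 per library. Symbols came from GENCODE vM21 (48144 matched), and exon lengths from the same annotation.

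Genes with at least 20 DESeq2-normalized counts in at least 4 libraries (9744) entered the main test (edgeR 4.0.16, R 4.3.3), with TMM normalization, the quasi-likelihood test, embryo as a block and Benjamini-Hochberg adjustment over all genes. The threshold of the study was used beside it. Both sides of an embryo come from 1 animal, which pairs them. The correlation of their deviations from the side means was 0.165, 0.190, -0.02 and 0.437 in L29-3, L43-5, L46-8 and L49-3, and ranged from -0.39 to 0.255 between embryos. Per-library values are DESeq2-normalized counts, and for the ratio within an embryo 0.5 was added to TMM-normalized CPM. Alternatives were DESeq2 1.42.0, limma-voom (limma 3.58.1), other normalizations and filters, no block, and each embryo left out. On simulated data with 200 changed genes among 9744, edgeR recovered 199 between sides. Recovery of differences as small as those of the tested neural genes was not tested.

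All 37 members were named, by role, with their values; 36 further neural genes were counted, and those past the study's threshold named, with other genes named where a result turns on them. Of the 10 genes of like pattern, 1 is not reported here. The members and lists were chosen with earlier results of these data known.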

Additional observations from a re-analysis of the deposited data

Results flagged for a closer look

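In each side of 4 libraries, the highest or lowest normalized count was compared with its nearest neighbour by Dixon's ratio, for the 37 genes and for the sums of the 6 roles. Of 84 groups examined, 13 had a library far from the others, and the 2 groups with 0 reads in all their libraries could not be examined. The chance rate of about 1 in 20 groups holds for normally distributed values. It cannot be set against the 13, since many groups have few reads and the groups share libraries. In 6 of the 13, a single library had reads and the other 3 had 0: Wnt8b on the left (0.811 in L29-3) and on the right (2.48 in L29-3), En2 on the left (0.652 in L43-5) and on the right (0.534 in L43-5), Dbx2 on the left (0.652 in L43-5) and Neurod1 on the left (0.814 in L46-8). L49-3 was high on the left for Zic5 (44.9, next 7.30), En1 (26.3, next 3.91) and Nkx6-2 (10.8, next 1.62), and on the right for Sox2 (153, next 101). Olig3 was 18.6 in the right library of L29-3 (next 1.27), and Nkx2-2 was 3.81 in the right library of L46-8 (next 0.534). Nes was low, at 159.7, in the right library of L29-3, with 206 as the next lowest.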

How the results depend on the processing

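The direction of Pax6, Sox1, Ncam1, Pax8, Sox3, Nkx6-1, Rfx4 and Sox21 was kept under every alternative run; the calls were not. Without a filter on low counts, 34 genes passed with adjustment between sides (1 with it), 687 the threshold of the study (297) and 641 between embryos (17), and of the 37 neural genes 4, 10 and 13. With at least 10 counts in every library these were 0 genes with adjustment between sides and 9 between embryos, on 9482 genes of which 13 were members. DESeq2 gave 2, 59 and 48, with 0 members at any threshold, and limma-voom gave 4 between embryos. Without the replicate block, that is without pairing, 0 genes passed with adjustment and 233 the threshold of the study, 2 of them members (Pax6 and Ncam1). Leaving out each embryo in turn gave 1 to 5 genes with adjustment between sides, 268 to 379 at the threshold of the study and 0 to 236 between embryos. For members the ranges were 0 to 1 (Pax6), 1 to 4 at the threshold of the study, and 0 to 2 between embryos. Fold changes near 0 reversed: Nes was 0.00095 with library size alone and 0.00282 without a filter, and Gbx2 -0.0117 with limma-voom. With an embryo left out the log2 fold change ran from -0.17 to 0.12 for Gbx2, -0.23 to 0.0670 for Sox2, -0.16 to 0.0690 for Nes, -0.33 to 0.21 for Irx3, -0.24 to 0.0509 for Irx5, -0.0639 to 0.74 for Otx2, -0.94 to 0.0991 for Zic2 and -0.0150 to 0.72 for Pax2. The adjusted p of Pax6 and Sox1 passed without a filter, with log2 fold changes of -0.82 and -0.97, and for Pax6 without L29-3, and the cause was not tested. The smallest p an exact paired test on 4 embryos can give is 0.125, so no such test was used.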
